A study of Mus musculus with 12 samples.

Results

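Dux, encoded in mouse by Duxf3, is the transcription factor that opens the gene programme of the 2-cell embryo. The genes described here are 10 regulators that act above it: the activators Dppa2, Dppa4 and Nelfa, and the repressors Trim28, Setdb1, Kdm1a, Smchd1, Zmym2, Chaf1a and Chaf1b. They were chosen by symbol from the 54532 genes of the deposited table, and all 10 were found and passed the filter on low counts. They were followed in poly(A) RNA of E14 mouse embryonic stem cells grown on gelatin in serum-containing medium with LIF and 2 kinase inhibitors. The groups were p53 KO cells given doxorubicin, p53 KO controls, Dux KO cells given doxorubicin, Dux KO controls, wild-type (WT) cells given doxorubicin and WT controls, with 2 libraries in each. Doxorubicin, a topoisomerase II poison that breaks DNA, was given at 1 uM for 6 h and then washed out, while controls received DMSO for the same time. The time spent in drug-free medium before RNA was taken is not given in the sources used here, nor is the kind of edit in the knockouts. Each knockout is represented by lines 1 and 2 with 1 library per line and condition, so its spread includes the difference between lines. Both WT libraries carry the name of 1 line and are called a and b.

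Dppa2 and Dppa4 are SAP-domain proteins that form a heterodimer, bind the Dux promoter and are needed for its expression in embryonic stem cells. Nelfa is a subunit of the negative elongation factor NELF, which pauses RNA polymerase II, and has been described as a maternal factor that drives cells toward the 2-cell-like state. On the repressive side, KRAB zinc finger proteins bring the corepressor Trim28 to chromatin, and Trim28 recruits Setdb1, the methyltransferase that lays down H3K9me3. Trim28 also acts with nucleolin and LINE1 RNA at the Dux locus. Kdm1a (LSD1) removes methyl groups from H3K4, Smchd1 is a structural maintenance of chromosomes protein that keeps Dux arrays silent, and Zmym2 is a zinc finger protein that joins Kdm1a and other corepressors. Chaf1a and Chaf1b are the large and middle subunits of CAF-1, which places histones on newly made DNA, and their loss raises the share of 2-cell-like cells.

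Promoter sequences are shown for 4 members: Nelfa, which had the largest rise, Trim28, which had the largest fall, and Chaf1a and Chaf1b, which are subunits of 1 complex and were called in opposite directions in WT cells. They are RefSeq sequences of GRCm38.p6, written 5′ to 3′ on the gene's own strand, and end at the last base before the transcription start or before the first annotated exon. Capitals mark TTCCCGCC, a motif read by E2F factors, on either strand. Nelfa lies at chr5:33936414-33936521 on the minus strand, Trim28 at chr7:13023902-13024151, Chaf1a at chr17:56040166-56040415 and Chaf1b at chr16:93883651-93883900, these last 3 on the plus strand.
Nelfa: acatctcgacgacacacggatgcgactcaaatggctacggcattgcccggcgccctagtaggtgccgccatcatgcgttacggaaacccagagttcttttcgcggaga
Trim28: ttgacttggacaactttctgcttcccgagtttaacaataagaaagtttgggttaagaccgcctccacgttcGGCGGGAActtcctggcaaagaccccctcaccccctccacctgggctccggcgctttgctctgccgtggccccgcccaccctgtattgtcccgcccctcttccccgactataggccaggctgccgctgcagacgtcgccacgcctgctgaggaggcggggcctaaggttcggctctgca
Chaf1a: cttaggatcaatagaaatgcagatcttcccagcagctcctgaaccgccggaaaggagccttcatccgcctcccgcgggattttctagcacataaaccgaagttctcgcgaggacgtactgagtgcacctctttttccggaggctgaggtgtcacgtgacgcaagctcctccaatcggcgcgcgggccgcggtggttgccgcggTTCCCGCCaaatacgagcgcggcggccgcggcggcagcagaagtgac
Chaf1b: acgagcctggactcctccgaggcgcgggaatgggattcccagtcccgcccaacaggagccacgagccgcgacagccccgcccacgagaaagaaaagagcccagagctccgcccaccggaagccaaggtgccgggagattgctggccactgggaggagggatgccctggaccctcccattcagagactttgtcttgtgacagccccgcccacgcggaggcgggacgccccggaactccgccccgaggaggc
RefSeq windows of 300 bases were found for 8 of the 10 members, all but Dppa2 and Dppa4. TTCCCGCC, searched on both strands, was present in 2 of the 8 windows, those of Chaf1a and Trim28, and in 2.52% of the windows of 27025 genes. The p53 response-element decamer was in 0 of 8 and in 9.55% of all, and CCAAT was in 4 of 8 (Chaf1a, Kdm1a, Setdb1 and Zmym2) and in 41.1% of all. No searched motif contains another, and a match or its absence describes these windows only.

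Libraries held 23270358 to 56795858 counts. The deposited counts of Dux KO control 2 equal those of Dux KO doxorubicin 1 in 54532 of 54532 genes. They were left out, so tests rest on 11 libraries, and the lone Dux KO control is assumed to vary like the other groups. The deposited FPKM of Dux KO control 2 are distinct and are given below. FPKM here is per kilobase of the whole gene span with its introns. The count-to-FPKM ratio matched that span to within 1% for 98.1% to 98.3% of genes with over 500 counts. Whether strand was used in the counting was not tested. Trp53 stood at 9.55 and 4.78 FPKM in p53 KO doxorubicin libraries and 6.11 and 3.46 FPKM in p53 KO controls, against 12.6 and 11.7 FPKM in WT doxorubicin libraries and 17.2 and 13.9 FPKM in WT controls. The difference was not called under control (log2 -1.65, edgeR adjusted p = 0.084) or under the drug (log2 -0.95, adjusted p = 0.058). Duxf3 had 114 and 20 counts in p53 KO doxorubicin libraries, 0 and 14 in p53 KO controls, 0 in every Dux KO library, 670 and 685 in WT doxorubicin libraries and 2 and 0 in WT controls. The summed FPKM of 8 embryonic stem cell markers ran from 1050 to 1160 in p53 KO doxorubicin libraries and from 1410 to 1480 in p53 KO controls. It ran from 684 to 805 in Dux KO doxorubicin libraries and from 1290 to 1910 in Dux KO controls, and from 296 to 364 in WT doxorubicin libraries and from 1470 to 1530 in WT controls. The 6 fibroblast markers summed to 1.77 to 2.17 FPKM in p53 KO doxorubicin libraries and 0.762 to 0.991 FPKM in p53 KO controls, to 0.839 to 1.25 FPKM in Dux KO doxorubicin libraries and 0.164 to 0.201 FPKM in Dux KO controls, and to 2.76 to 2.85 FPKM in WT doxorubicin libraries and 0.629 to 0.782 FPKM in WT controls. The 5 trophectoderm markers summed to 7.94 to 16.0 FPKM in p53 KO doxorubicin libraries and 3.42 to 16.3 FPKM in p53 KO controls, to 3.46 to 5.24 FPKM in Dux KO doxorubicin libraries and 2.93 to 5.49 FPKM in Dux KO controls, and to 13.6 to 19.3 FPKM in WT doxorubicin libraries and 5.18 to 5.87 FPKM in WT controls. The 5 primitive endoderm markers stayed under 1 FPKM in sum in every library, with 0.636 to 0.849 FPKM in WT doxorubicin libraries and 0.219 to 0.228 FPKM in WT controls. In the WT response all 8 stem cell markers were called lower, and 3 of 4 tested fibroblast, 3 of 5 trophectoderm and 2 of 5 primitive endoderm markers were called higher. No marker was at 0 in every library. Their part in the changes below was not tested.

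In WT cells doxorubicin moved 9 of the 10 regulators: 3 were called higher and 6 lower, in a comparison that called 52.4% of all 28643 tested genes (29% higher, 23.4% lower). Called means an adjusted p under 0.05 in edgeR's quasi-likelihood test. The higher ones were Nelfa, Dppa2 and Chaf1a, and the lower ones were Trim28, Chaf1b, Kdm1a, Setdb1, Smchd1 and Zmym2. The members' median log2 change was -0.67, beside 0.13 over all genes. In p53 KO cells 0 were called higher and 4 lower (Trim28, Kdm1a, Smchd1 and Zmym2), in a comparison that called 17.4% of genes (9.31% higher, 8.09% lower), with medians of -0.04 for the members and 0.18 for all genes. In Dux KO cells 0 were called higher and 4 lower (Trim28, Setdb1, Smchd1 and Zmym2), in a comparison that called 26.5% of genes (14.5% higher, 11.9% lower), with medians of -0.50 and 0.00. With the line number as a replicate block, the p53 KO response called 6 members. Of these, 2 were higher (Nelfa and Dppa2) and 4 lower, beside 6180 and 4696 of all genes. The p-values measure the spread between these libraries.

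**Figure D1:**
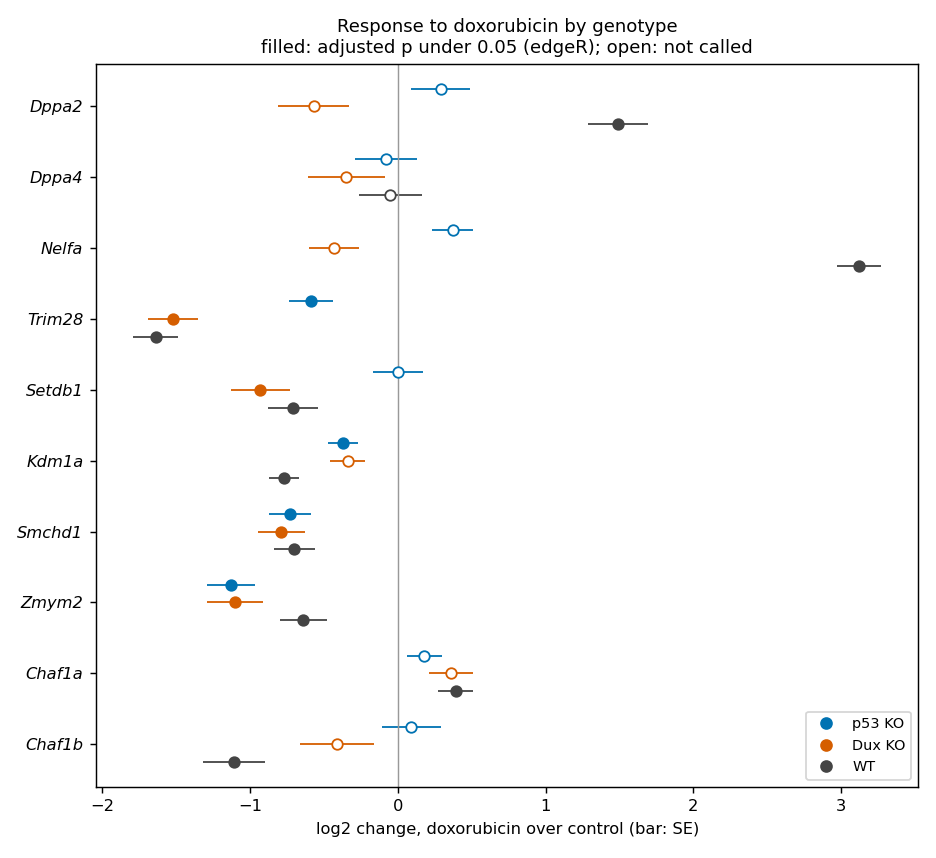
The log2 change, doxorubicin over control, is plotted for each of the 10 regulators in p53 KO (blue), Dux KO (orange) and WT cells (grey), with bars of 1 standard error and filled points for adjusted p under 0.05. Nelfa stands at 3.12 and Dppa2 at 1.49 in WT cells, and neither was called in a knockout, while Smchd1 lies between -0.79 and -0.70 in all 3 genotypes.

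The difference between responses was tested as an interaction. The p53 KO response differed from the WT response in 4 of 10 members, in a comparison that called 20.2% of genes. Trim28 and Chaf1b were higher, beside 9.9% of all genes, and Nelfa and Dppa2 lower, beside 10.3%. The Dux KO response differed from the WT response in 2 of 10, in a comparison that called 5.25% of genes. Both, Nelfa and Dppa2, were lower, beside 3.15% of all genes, and 0 were higher, beside 2.1%. Both interactions share the WT libraries, so they are not independent of each other. With the line number as a replicate block the p53 interaction called 7 members in place of 4, beside 10796 of all genes in place of 5798.

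Nelfa (ENSMUSG00000029111, chr5:33897916-33936413, minus strand, GRCm38) was the activator that moved most. In p53 KO cells it had 2.74 and 2.65 FPKM with doxorubicin and 1.59 and 1.78 FPKM in controls. In Dux KO cells it had 1.17 and 1.32 FPKM with doxorubicin and 1.44 and 1.27 FPKM in controls. In WT cells it had 13.5 and 15.2 FPKM with doxorubicin and 1.69 and 1.53 FPKM in controls. Both WT doxorubicin libraries lie far above the other 10, the p53 KO doxorubicin libraries lie above their controls without overlap, and the Dux KO groups overlap. The WT rise was 8.72-fold (log2 3.12, SE 0.15, edgeR adjusted p = 5e-06), against log2 0.37 (adjusted p = 0.094) in p53 KO cells and log2 -0.43 (adjusted p = 0.087) in Dux KO cells. In bulk RNA, a rise in a few cells and a smaller rise in every cell cannot be told apart.

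The interaction for Nelfa was log2 -2.75 in p53 KO cells (SE 0.20, edgeR adjusted p = 0.00021) and log2 -3.56 in Dux KO cells (SE 0.22, adjusted p = 0.00018). Under doxorubicin Nelfa was 6.22-fold lower in p53 KO than in WT cells (log2 -2.64, adjusted p = 9e-06) and 12.6-fold lower in Dux KO than in WT cells (log2 -3.65, adjusted p = 8.3e-06). The authors' deposited table gives log2 -2.64 and -3.67 for these differences and 3.16 for the WT response. The WT rise, both interactions and both differences under doxorubicin were called in every alternative that was run. The small p53 KO rise was called with the replicate block (log2 0.37, adjusted p = 0.027) and with limma on log2(FPKM + 1) (log2 0.46, adjusted p = 0.021), and the Dux KO change was called as a fall with the block (log2 -0.51, adjusted p = 0.029).

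The other NELF subunits did not rise with Nelfa in WT cells. Nelfe, which binds RNA, fell to 4.07 ± 0.56 FPKM in WT doxorubicin libraries, against 7.74 ± 0.35 FPKM in WT controls (SD, n = 2 each; log2 -0.97, edgeR adjusted p = 0.0011). Nelfb stood at 4.96 ± 0.40 and 5.16 ± 0.11 FPKM in the same groups (log2 -0.10, adjusted p = 0.73) and Nelfcd at 4.20 ± 0.39 and 5.69 ± 0.26 FPKM (log2 -0.48, adjusted p = 0.081). Of the genes beside Nelfa, Nsd2, an H3K36 methyltransferase gene on the opposite strand that shares 60 bases with the Nelfa span, had a WT change of log2 -0.16 (adjusted p = 0.37). Letm1, a mitochondrial ion exchanger gene 115098 bases away, rose in WT cells (log2 1.56, adjusted p = 0.00015) and in Dux KO cells (log2 1.31, adjusted p = 0.0034). Its p53 KO response was lower than the WT response (log2 -1.35, adjusted p = 0.0063) and its Dux KO response was not called different (log2 -0.25, adjusted p = 0.67). The other neighbours tested were not called in WT cells. They were Gm1673 (log2 -2.59, adjusted p = 0.068), Nat8l (log2 0.42, adjusted p = 0.56), Poln (log2 -0.21, adjusted p = 0.17) and Fgfr3 (log2 -1.37, adjusted p = 0.18). Across the 12 libraries the FPKM profiles most like that of Nelfa, among 11828 genes, were Gm12790 (Pearson r 0.995), Gm21037 (0.994) and Gm5286 (0.994). These correlations rest on the same 2 high libraries and are given as a description.

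Dppa2 (ENSMUSG00000072419, chr16:48303908-48319723, plus strand) had 3.05 and 2.73 FPKM in p53 KO doxorubicin libraries and 2.27 and 1.54 FPKM in p53 KO controls. It had 1.13 and 1.14 FPKM in Dux KO doxorubicin libraries and 1.44 and 1.15 FPKM in Dux KO controls. It had 4.22 and 4.27 FPKM in WT doxorubicin libraries and 1.51 and 1.43 FPKM in WT controls. The WT doxorubicin libraries are the highest of the 12, the p53 KO doxorubicin libraries come next, and both Dux KO doxorubicin libraries lie below their controls. The WT rise was 2.81-fold (log2 1.49, SE 0.20, edgeR adjusted p = 0.00037). The change was log2 0.29 in p53 KO cells (adjusted p = 0.33) and log2 -0.57 in Dux KO cells (adjusted p = 0.12). With the replicate block the p53 KO change was called as a rise of log2 0.31 (adjusted p = 0.042). The blocked Dux KO change was log2 -0.56, which sets doxorubicin 1 against control 1 only. With the counts of Dux KO control 2 recovered from its FPKM, the block called it as a fall (log2 -0.47, adjusted p = 0.012).

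The Dppa2 response was lower than in WT cells by log2 -1.20 in p53 KO cells (SE 0.29, edgeR adjusted p = 0.019) and log2 -2.06 in Dux KO cells (SE 0.31, adjusted p = 0.0084). Under doxorubicin Dppa2 was 1.71-fold lower in p53 KO than in WT cells (log2 -0.77, adjusted p = 0.013) and 4.07-fold lower in Dux KO than in WT cells (log2 -2.02, adjusted p = 0.0002). The p53 interaction lost its call without any 1 of the 4 WT libraries (adjusted p = 0.051 to 0.077), and the Dux interaction without WT control b (adjusted p = 0.056). The p53 KO difference under doxorubicin lost its call without WT doxorubicin b (adjusted p = 0.067) or p53 KO doxorubicin 2 (adjusted p = 0.057).

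Dppa4 (ENSMUSG00000058550, chr16:48283733-48294237, plus strand), the partner of Dppa2, lies 9670 bases away from it on the same strand. It had 8.03 and 5.76 FPKM in p53 KO doxorubicin libraries and 6.46 and 5.39 FPKM in p53 KO controls. It had 3.89 and 4.24 FPKM in Dux KO doxorubicin libraries and 4.44 and 5.65 FPKM in Dux KO controls. It had 6.18 and 4.91 FPKM in WT doxorubicin libraries and 5.17 and 5.95 FPKM in WT controls. The p53 KO and WT groups overlap between drug and control, and the Dux KO doxorubicin libraries lie just below their controls. No response was called, with log2 -0.08 in p53 KO (edgeR adjusted p = 0.83), -0.35 in Dux KO (adjusted p = 0.36) and -0.05 in WT cells (adjusted p = 0.86, SE 0.21). Under doxorubicin the level in Dux KO cells differed from that in WT cells by log2 -0.56 (adjusted p = 0.077), which was called with RLE scaling (log2 -0.67, adjusted p = 0.039), with DESeq2 (log2 -0.67, adjusted p = 0.022) and with the replicate block (log2 -0.56, adjusted p = 0.0021). With the block and recovered counts the Dux KO response was also called (log2 -0.59, adjusted p = 0.008). The profiles most like that of Dppa2 over the 12 libraries were Gm9788 (Pearson r 0.977), Gm8023 (0.974) and Gtpbp8 (0.965), and those most like that of Dppa4 were Ndufa5 (0.930), Armc6 (0.924) and Ebna1bp2 (0.912).

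**Figure D2:**
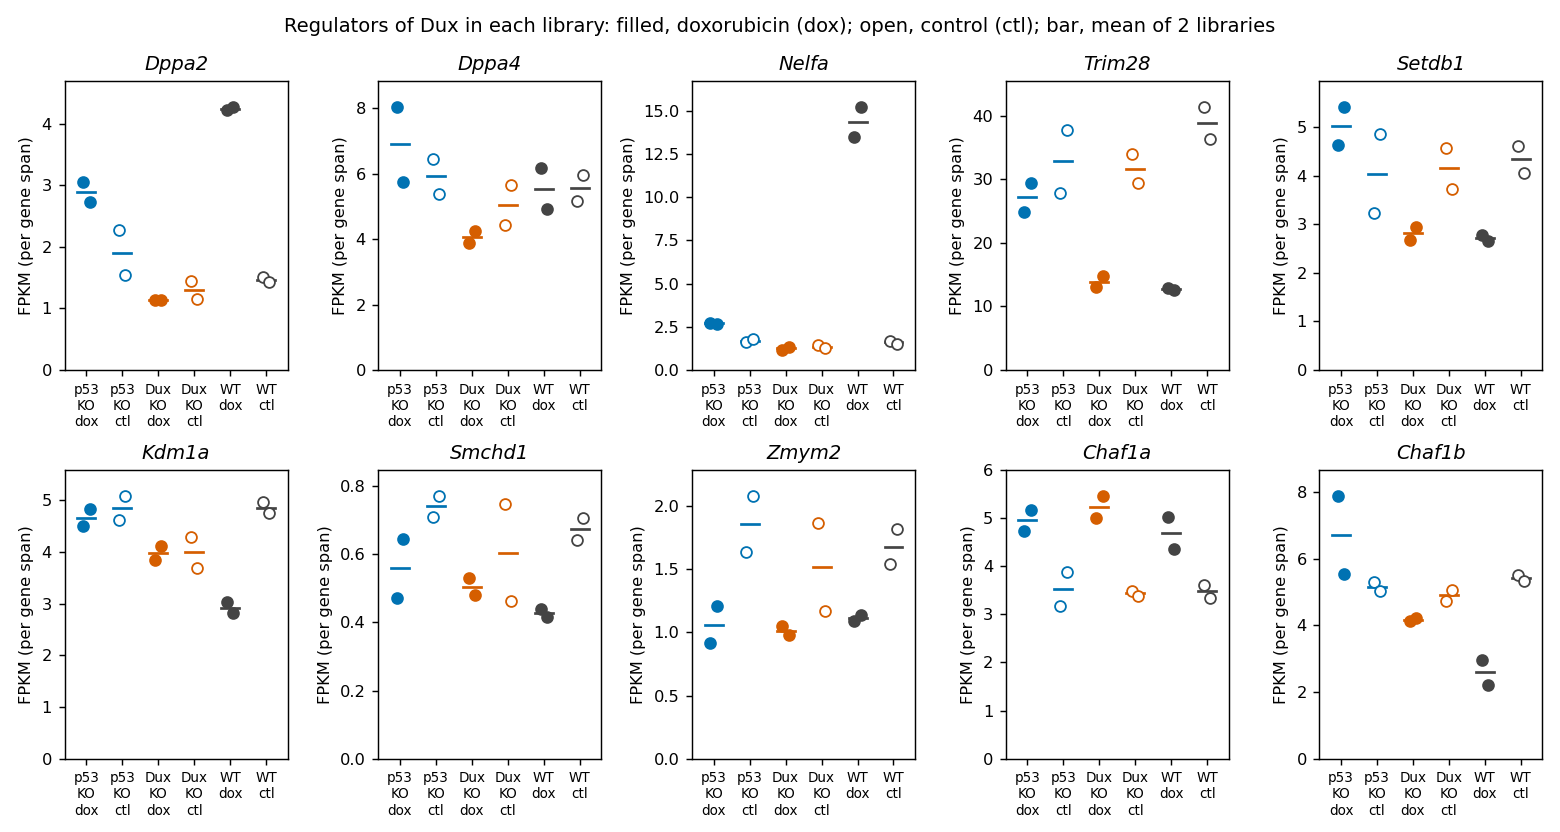
FPKM per kilobase of gene span is plotted for each regulator in every library, with filled points for doxorubicin, open points for control and a bar at the mean of 2 libraries. Nelfa reaches 13.5 and 15.2 FPKM in WT doxorubicin libraries, while Trim28 falls to 12.9 and 12.6 FPKM there, against 41.3 and 36.3 FPKM in WT controls.

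Among the repressors, Trim28 (ENSMUSG00000005566, chr7:12999114-13031035, plus strand) fell most in WT cells. It had 24.9 and 29.4 FPKM in p53 KO doxorubicin libraries and 27.9 and 37.8 FPKM in p53 KO controls. It had 13 and 14.7 FPKM in Dux KO doxorubicin libraries and 33.9 and 29.4 FPKM in Dux KO controls. It had 12.9 and 12.6 FPKM in WT doxorubicin libraries and 41.3 and 36.3 FPKM in WT controls. The Dux KO and WT doxorubicin libraries all lie below every other library, and the p53 KO groups overlap on the FPKM scale. The fall was 3.12-fold in WT cells (log2 -1.64, SE 0.15, edgeR adjusted p = 4.1e-05), 2.87-fold in Dux KO cells (log2 -1.52, SE 0.17, adjusted p = 0.00044) and 1.50-fold in p53 KO cells (log2 -0.59, SE 0.15, adjusted p = 0.027). The p53 KO fall lost its call without p53 KO control 2 (adjusted p = 0.11), p53 KO doxorubicin 1 (adjusted p = 0.059) or WT doxorubicin a (adjusted p = 0.053), and with limma on log2(FPKM + 1) (log2 -0.26, adjusted p = 0.34).

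The p53 KO response of Trim28 differed from the WT response by log2 1.06 (SE 0.21, edgeR adjusted p = 0.0078), and the Dux KO response by log2 0.12 (SE 0.23, adjusted p = 0.83). Under doxorubicin Trim28 was 1.82-fold higher in p53 KO than in WT cells (log2 0.86, adjusted p = 0.0015), and Dux KO cells differed from WT cells by log2 -0.01 (SE 0.15, adjusted p = 0.98). Zbtb45, which lies inside the Trim28 span on the other strand, held 1.04% to 2.01% as many counts as Trim28, and taking them off left the WT change at log2 -1.64.

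Setdb1 (ENSMUSG00000015697, chr3:95323525-95357202, minus strand), the enzyme that Trim28 recruits, had 4.63 and 5.41 FPKM in p53 KO doxorubicin libraries and 3.24 and 4.85 FPKM in p53 KO controls. It had 2.68 and 2.95 FPKM in Dux KO doxorubicin libraries and 4.58 and 3.73 FPKM in Dux KO controls. It had 2.78 and 2.65 FPKM in WT doxorubicin libraries and 4.61 and 4.06 FPKM in WT controls. Drug and control libraries are apart in Dux KO and WT cells and overlap in p53 KO cells. Setdb1 fell 1.64-fold in WT cells (log2 -0.71, SE 0.17, edgeR adjusted p = 0.0069) and 1.90-fold in Dux KO cells (log2 -0.93, SE 0.20, adjusted p = 0.0089), and had log2 0.00 in p53 KO cells (SE 0.17). The WT call was lost without WT control a (adjusted p = 0.051), and the Dux KO call without Dux KO doxorubicin 1 (adjusted p = 0.052) and with limma on log2(FPKM + 1) (log2 -0.43, adjusted p = 0.077).

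The p53 interaction of Setdb1 was log2 0.72 (SE 0.24, edgeR adjusted p = 0.064), and was called with the replicate block (log2 0.74, adjusted p = 0.0034). Under doxorubicin Setdb1 was 1.58-fold higher in p53 KO than in WT cells (log2 0.66, adjusted p = 0.012), a call that was lost without WT doxorubicin a (adjusted p = 0.068) or b (adjusted p = 0.063). In Dux KO cells it differed from WT cells by log2 -0.07 (adjusted p = 0.78).

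Kdm1a (ENSMUSG00000036940, chr4:136550540-136602723, minus strand) had 4.50 and 4.82 FPKM in p53 KO doxorubicin libraries and 4.62 and 5.08 FPKM in p53 KO controls. It had 3.85 and 4.11 FPKM in Dux KO doxorubicin libraries and 4.29 and 3.69 FPKM in Dux KO controls. It had 3.03 and 2.81 FPKM in WT doxorubicin libraries and 4.96 and 4.75 FPKM in WT controls. The WT doxorubicin libraries are the lowest of the 12, and drug and control overlap in both knockouts. Kdm1a fell 1.71-fold in WT cells (log2 -0.77, SE 0.10, edgeR adjusted p = 0.00031). The p53 KO fall was smaller (log2 -0.37, adjusted p = 0.039) and lost its call under 13 of 20 alternatives (largest adjusted p = 0.83, with limma without a filter). The Dux KO change was log2 -0.34 (adjusted p = 0.075). With the block it was log2 -0.36, which sets doxorubicin 1 against control 1 only. The p53 interaction was log2 0.40 (adjusted p = 0.082), called with the block (log2 0.40, adjusted p = 0.026). Under doxorubicin Kdm1a was 1.37-fold higher in p53 KO than in WT cells (log2 0.45, adjusted p = 0.0065) and 1.25-fold higher in Dux KO than in WT cells (log2 0.32, adjusted p = 0.041), and the second call was lost under 10 of 20 alternatives, RLE scaling (log2 0.22, adjusted p = 0.12) and the block with recovered counts (log2 0.30, adjusted p = 0.051) among them. Luzp1, on the other strand, shares 4241 bases with the Kdm1a span and held 78.0% to 139% as many counts. Its own log2 change in edgeR was -0.22 in p53 KO (adjusted p = 0.18), 0.19 in Dux KO and -0.03 in WT cells (adjusted p = 0.81). Kdm1a less those counts was not tested.

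Smchd1 (ENSMUSG00000024054, chr17:71344489-71475343, minus strand) had the lowest level of the 10. It had 0.472 and 0.646 FPKM in p53 KO doxorubicin libraries and 0.710 and 0.771 FPKM in p53 KO controls. It had 0.530 and 0.479 FPKM in Dux KO doxorubicin libraries and 0.747 and 0.462 FPKM in Dux KO controls. It had 0.440 and 0.415 FPKM in WT doxorubicin libraries and 0.642 and 0.706 FPKM in WT controls. Drug and control are apart in p53 KO and WT cells, while Dux KO control 2 lies below both Dux KO doxorubicin libraries. The fall was 1.65-fold in p53 KO (log2 -0.73, SE 0.14, edgeR adjusted p = 0.010), 1.73-fold in Dux KO (log2 -0.79, SE 0.16, adjusted p = 0.0076) and 1.62-fold in WT cells (log2 -0.70, SE 0.14, adjusted p = 0.0028). With the counts of Dux KO control 2 recovered from its FPKM, the Dux KO fall was no longer called (log2 -0.54, adjusted p = 0.055), nor was it without Dux KO doxorubicin 2 (adjusted p = 0.054). With limma on log2(FPKM + 1) without a filter, the fall was called in no genotype. It was log2 -0.16 in p53 KO (adjusted p = 0.36), -0.09 in Dux KO (adjusted p = 0.71) and -0.23 in WT cells (adjusted p = 0.12). The interactions in edgeR were log2 -0.03 (SE 0.20) in p53 KO and -0.09 (SE 0.22) in Dux KO cells. The noncoding gene Gm26561, on the other strand, covers 37.3% of the Smchd1 span. With the strand setting not given, its reads there cannot be told apart from those of Smchd1. Gm26561 held 505% to 1010% as many counts as Smchd1, and its own change was log2 -0.18 in p53 KO (adjusted p = 0.40), log2 -0.56 in Dux KO (adjusted p = 0.035) and log2 -0.13 in WT cells (adjusted p = 0.44).

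Zmym2 (ENSMUSG00000021945, chr14:56886653-56962701, plus strand) had 0.914 and 1.21 FPKM in p53 KO doxorubicin libraries and 1.64 and 2.08 FPKM in p53 KO controls. It had 1.05 and 0.978 FPKM in Dux KO doxorubicin libraries and 1.87 and 1.17 FPKM in Dux KO controls. It had 1.09 and 1.14 FPKM in WT doxorubicin libraries and 1.54 and 1.82 FPKM in WT controls. Each doxorubicin group lies below its controls without overlap, and Dux KO control 2 lies closer to the drug libraries than to Dux KO control 1. Zmym2 fell 2.18-fold in p53 KO cells (log2 -1.13, SE 0.16, edgeR adjusted p = 0.0038), 2.15-fold in Dux KO cells (log2 -1.10, SE 0.19, adjusted p = 0.0029) and 1.55-fold in WT cells (log2 -0.64, SE 0.16, adjusted p = 0.0086). With recovered counts of Dux KO control 2 the Dux KO fall was log2 -0.86 (adjusted p = 0.0088). All 3 falls lost their call with limma on log2(FPKM + 1), at adjusted p = 0.065, 0.14 and 0.08, and the WT fall also without WT control b (adjusted p = 0.077) or WT doxorubicin a (adjusted p = 0.065). The interactions were log2 -0.49 (adjusted p = 0.16; 0.023 with the block) in p53 KO and log2 -0.47 (adjusted p = 0.31) in Dux KO cells. Under doxorubicin p53 KO cells differed from WT cells by log2 -0.30 (adjusted p = 0.15), and the block turned this into a called difference of log2 -0.31 (adjusted p = 0.028).

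The CAF-1 subunits were called in opposite directions in WT cells, but the Chaf1a call was lost without any 1 WT library. Chaf1b (ENSMUSG00000022945, chr16:93883901-93906115, plus strand) had 7.88 and 5.53 FPKM in p53 KO doxorubicin libraries and 5.29 and 5.02 FPKM in p53 KO controls. It had 4.12 and 4.22 FPKM in Dux KO doxorubicin libraries and 4.74 and 5.06 FPKM in Dux KO controls. It had 2.97 and 2.21 FPKM in WT doxorubicin libraries and 5.52 and 5.33 FPKM in WT controls. On the FPKM scale the WT doxorubicin libraries are the lowest of the 12 and p53 KO doxorubicin libraries the highest. Of these, p53 KO doxorubicin 2 at 5.53 FPKM is level with WT control a at 5.52 FPKM. Chaf1b fell 2.16-fold in WT cells (log2 -1.11, SE 0.21, edgeR adjusted p = 0.002), against log2 0.09 in p53 KO (adjusted p = 0.80) and -0.41 in Dux KO cells (adjusted p = 0.26; log2 -0.52 and 0.018 with the block and recovered counts). The p53 interaction was log2 1.20 (SE 0.29, adjusted p = 0.020), which was lost without WT control a (adjusted p = 0.070), WT control b (adjusted p = 0.067) or WT doxorubicin b (adjusted p = 0.070). The Dux interaction was log2 0.70 (SE 0.33, adjusted p = 0.24). Under doxorubicin Chaf1b was 2.26-fold higher in p53 KO than in WT cells (log2 1.17, adjusted p = 0.0018), and Dux KO cells differed from WT cells by log2 0.57 (adjusted p = 0.062; 0.004 with the block).

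Chaf1a (ENSMUSG00000002835, chr17:56040439-56072289, plus strand) had 4.74 and 5.17 FPKM in p53 KO doxorubicin libraries and 3.17 and 3.87 FPKM in p53 KO controls. It had 5.0 and 5.46 FPKM in Dux KO doxorubicin libraries and 3.49 and 3.38 FPKM in Dux KO controls. It had 5.03 and 4.35 FPKM in WT doxorubicin libraries and 3.62 and 3.34 FPKM in WT controls. Every doxorubicin library lies above every control library on the FPKM scale. The change was log2 0.39 in WT (SE 0.12, edgeR adjusted p = 0.025), 0.36 in Dux KO (SE 0.15, adjusted p = 0.12) and 0.18 in p53 KO cells (SE 0.12, adjusted p = 0.32), and limma on log2(FPKM + 1) called the Dux KO rise (log2 0.49, adjusted p = 0.012), as did the block with recovered counts (log2 0.31, adjusted p = 0.046). The WT call was lost without any 1 of the 4 WT libraries (adjusted p = 0.075 to 0.14). Ubxn6, on the other strand, shares 5245 bases with the Chaf1a span and held 37.4% to 47.9% as many counts. Its own log2 change in edgeR was 0.52 in WT (adjusted p = 0.0061), 0.56 in Dux KO and 0.02 in p53 KO cells (adjusted p = 0.92). The WT change of Chaf1a less those counts was log2 0.28 (adjusted p = 0.15).

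No regulator was called between knockout and WT cells without the drug. In p53 KO controls 0 of 10 members were called against WT controls, in a comparison that called 0.887% of genes, and in Dux KO controls 0 of 10, in one that called 1% of genes. In both, edgeR gave 0 members at an unadjusted p under 0.05, and DESeq2 and limma called 0. The widest differences were log2 0.42 for Dppa2 in p53 KO (SE 0.20, edgeR adjusted p = 0.42) and log2 -0.26 for Dppa4 in Dux KO controls (SE 0.27, adjusted p = 0.65). With the replicate block Dppa2 was called higher in p53 KO controls (log2 0.40, adjusted p = 0.039).

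Under doxorubicin 6 of 10 members differed between p53 KO and WT cells, in a comparison that called 43.7% of genes. Trim28, Setdb1, Kdm1a and Chaf1b were higher, beside 21.7% of all genes, and Nelfa and Dppa2 lower, beside 22%. Between Dux KO and WT cells 3 of 10 differed, in a comparison that called 30.1% of genes. Kdm1a was higher, beside 15.6% of all genes, and Nelfa and Dppa2 lower, beside 14.5%. Both comparisons share the WT doxorubicin libraries. With the block, p53 KO against WT called 7 members, beside 16467 of all 28643 tested genes. Dux KO against WT called 5, beside 14345 of all genes.

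**Figure D3:**
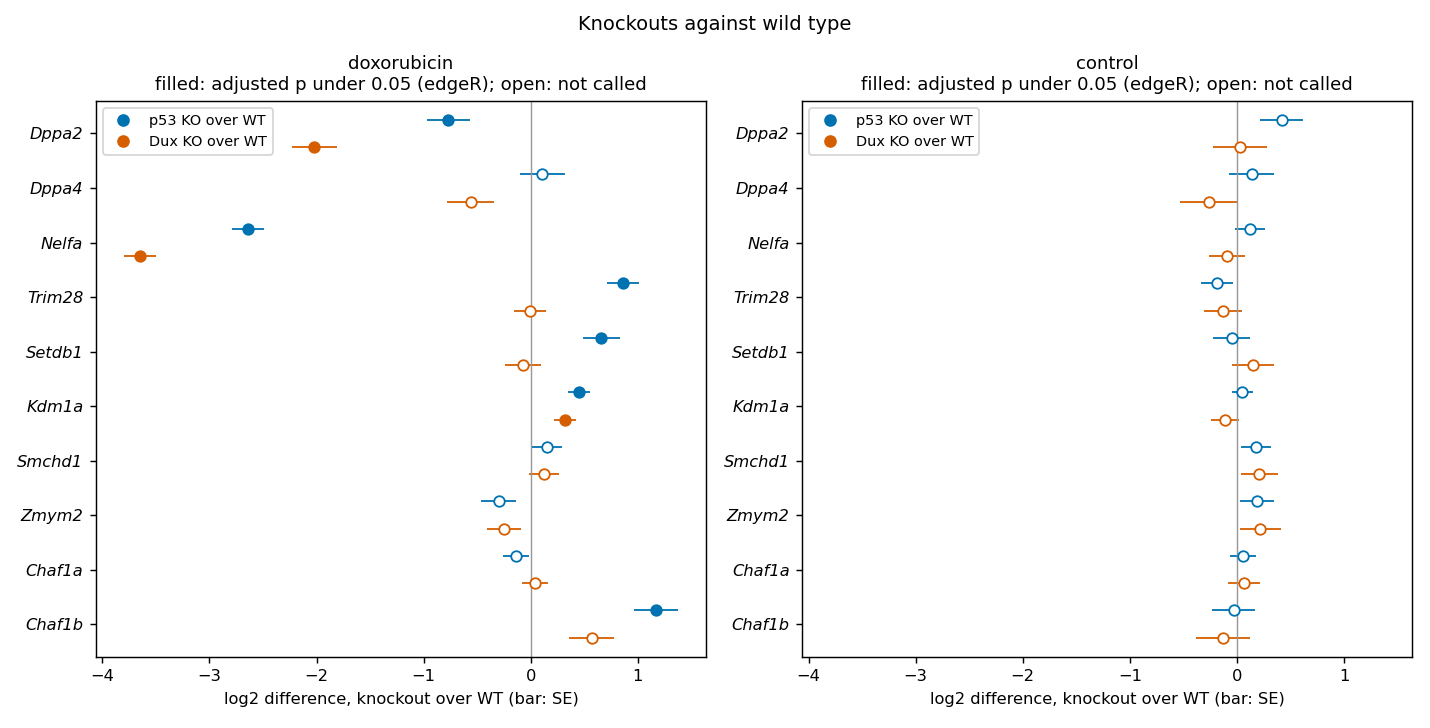
The log2 difference of p53 KO (blue) and Dux KO (orange) from WT cells is plotted for each regulator under doxorubicin (left) and control (right), with bars of 1 standard error and filled points for adjusted p under 0.05. Nelfa lies at -2.64 and -3.65 under doxorubicin and at 0.12 and -0.09 under control.

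The order of levels, per kilobase of gene span, was led by Trim28 in 5 of 6 groups. In WT doxorubicin libraries Nelfa stood first at 14.3 ± 1.2 FPKM and Trim28 next at 12.7 ± 0.27 FPKM (SD, n = 2), and their libraries did not overlap. In WT controls the order was Trim28 at 38.8 ± 3.5 FPKM, Dppa4 at 5.56 ± 0.56, Chaf1b at 5.43 ± 0.14, Kdm1a at 4.85 ± 0.14, Setdb1 at 4.33 ± 0.39, Chaf1a at 3.48 ± 0.20, Zmym2 at 1.68 ± 0.19, Nelfa at 1.61 ± 0.11, Dppa2 at 1.47 ± 0.059 and Smchd1 at 0.674 ± 0.045 FPKM. Among these neighbours Dppa4 and Chaf1b, and Zmym2 and Nelfa, overlap. Nelfa thus held rank 1 in WT doxorubicin libraries and rank 8 in WT controls. It held rank 8 in p53 KO doxorubicin libraries at 2.69 ± 0.064 FPKM and rank 7 in Dux KO doxorubicin libraries at 1.25 ± 0.11 FPKM. Since introns count in the length, long genes such as Smchd1 read low. The Trim28 span, chr7:12999114-13031035, also holds the promoter shown above, which ends at chr7:13024151. Bases before that start thus count in its length and lower its FPKM. The rank of Trim28 against Nelfa depends on the span used.

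In edgeR's test more partners of these regulators were called lower than higher in each genotype. In p53 KO cells limma called more higher than lower, among the partners as among all genes. Of 66 genes in 9 lists, 65 were tested. In WT cells 5 were called higher and 38 lower, beside 29% and 23.4% of all genes, with a median log2 of -0.46. In p53 KO cells 3 were higher and 23 lower, beside 9.31% and 8.09%, with a median of -0.28. In Dux KO cells 2 were higher and 28 lower, beside 14.5% and 11.9%. The p53 KO response differed from the WT response in 12 of 65 (10 higher, 2 lower) and the Dux KO response in 5 (1 higher, 4 lower), set against 20.2% and 5.25% of all genes. In p53 KO cells the replicate block called 10 higher and 33 lower, beside 6180 and 4696 of all genes. There limma on log2(FPKM + 1) called 5 higher and 4 lower, beside 1780 and 449 of all genes. Without a filter it called 5 higher and 3 lower, beside 3010 and 419. In the Dux interaction limma called 2 higher and 1 lower. The genes named below had the widest WT changes of their list, so their WT values, and the interactions that contain them, are descriptions.

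Of 8 tested Trim28-Setdb1 and HUSH partners, 5 were lower and 1 higher in WT cells. The heterochromatin proteins Cbx5 (HP1 alpha) and Cbx3 (HP1 gamma), which read H3K9me3, had WT changes of log2 -1.66 and -1.61. Both fell in Dux KO cells (log2 -1.47, edgeR adjusted p = 0.00038, and log2 -1.24, adjusted p = 0.0026) and in p53 KO cells (log2 -0.57, adjusted p = 0.022, and log2 -1.15, adjusted p = 0.0047). Atf7ip, the cofactor that stabilises Setdb1, went the other way in WT cells, with 1.24 ± 0.071 FPKM in doxorubicin libraries and 0.558 ± 0.024 FPKM in controls (SD, n = 2 each; log2 1.12), and was not called in p53 KO (log2 0.46, adjusted p = 0.052) or Dux KO cells (log2 -0.38, adjusted p = 0.13). Of 5 genes listed as other H3K9 methyltransferases and their partner Wiz, 3 were lower in WT cells. Ehmt2 (G9a) had 2.64 ± 0.37 FPKM in WT doxorubicin libraries and 8.81 ± 0.39 FPKM in WT controls (log2 -1.78), against log2 -0.28 in p53 KO (adjusted p = 0.16) and -0.55 in Dux KO cells (adjusted p = 0.026). Its zinc finger partner Wiz had log2 -1.67 in WT and fell by 1.45 on the log2 scale in Dux KO cells (adjusted p = 0.00026), with log2 -0.04 in p53 KO cells (adjusted p = 0.86).

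Of 9 partners of Kdm1a in the CoREST complex, 4 were lower and 0 higher in WT cells. Rcor2, the CoREST scaffold of embryonic stem cells, had 2.96 ± 0.37 FPKM in WT doxorubicin libraries and 16.0 ± 1.4 FPKM in WT controls (SD, n = 2 each; log2 -2.48), and fell in p53 KO (log2 -0.92, edgeR adjusted p = 0.015) and Dux KO cells (log2 -1.22, adjusted p = 0.0047). Zmym3, a relative of Zmym2, had log2 -1.43 in WT cells, fell in Dux KO cells (log2 -1.31, adjusted p = 0.006) and had log2 0.26 in p53 KO cells (adjusted p = 0.44). Of 10 CAF-1 partners and histone chaperones, 5 were lower and 1 higher in WT cells. The H3 chaperone Nasp had log2 -1.17 and Atrx, a remodeller that works with H3.3, log2 -1.07, and both fell in p53 KO (log2 -0.60, adjusted p = 0.020, and log2 -1.04, adjusted p = 0.0037) and Dux KO cells (log2 -1.01, adjusted p = 0.0023, and log2 -1.37, adjusted p = 0.00066). Ubn1, of the HIRA complex, had log2 0.80 in WT cells and was not called in either knockout. Among the 5 NELF and DSIF genes, Supt5, a DSIF subunit, had log2 0.52 in WT and rose in p53 KO cells (log2 0.64, adjusted p = 0.011).

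Of 9 genes of PRC1.6, a Polycomb complex that silences germline genes, 6 were lower and 0 higher in WT cells. Mga, its scaffold, had log2 -1.01 and fell in p53 KO (log2 -0.86, edgeR adjusted p = 0.0038) and Dux KO cells (log2 -1.04, adjusted p = 0.0011), and Pcgf6 had log2 -0.85 and fell in Dux KO cells (log2 -0.58, adjusted p = 0.015). Of 7 SUMO pathway genes 6 were lower and 0 higher in WT cells. Sumo2 had log2 -1.42 and fell in p53 KO (log2 -0.69, adjusted p = 0.016) and Dux KO cells (log2 -1.17, adjusted p = 0.0016). On the LINE1-nucleolin axis 4 of 5 were lower and 1 higher in WT cells. The nucleolar chaperone Npm1 had log2 -1.60 and fell in p53 KO (log2 -1.34, adjusted p = 0.0036) and Dux KO cells (log2 -0.97, adjusted p = 0.01), and the m6A reader Ythdc1 had log2 0.73.

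Lin28a, an RNA-binding protein of pluripotent cells, split by genotype. It had 10.3 ± 2.8 FPKM in p53 KO doxorubicin libraries and 4.81 ± 0.037 FPKM in p53 KO controls, 0.218 ± 0.050 FPKM in Dux KO doxorubicin libraries and 1.67 ± 0.50 FPKM in Dux KO controls, and 2.13 ± 0.40 FPKM in WT doxorubicin libraries and 6.47 ± 0.86 FPKM in WT controls (SD, n = 2 each). It rose in p53 KO (log2 0.78, edgeR adjusted p = 0.036) and fell in Dux KO cells (log2 -3.44, adjusted p = 0.00014), beside log2 -1.63 in WT cells. Of 7 other repressors of the 2-cell-like state, 4 were lower and 1 higher in WT cells. Uhrf1, which brings the maintenance DNA methyltransferase to replicated DNA, had log2 -1.64 and fell in p53 KO (log2 -0.52, adjusted p = 0.025) and Dux KO cells (log2 -1.37, adjusted p = 0.0004). Lrif1, a partner of Smchd1, had log2 1.22 and rose in p53 KO cells (log2 0.82, adjusted p = 0.021), with log2 0.19 in Dux KO cells (adjusted p = 0.59).

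**Figure D4:**
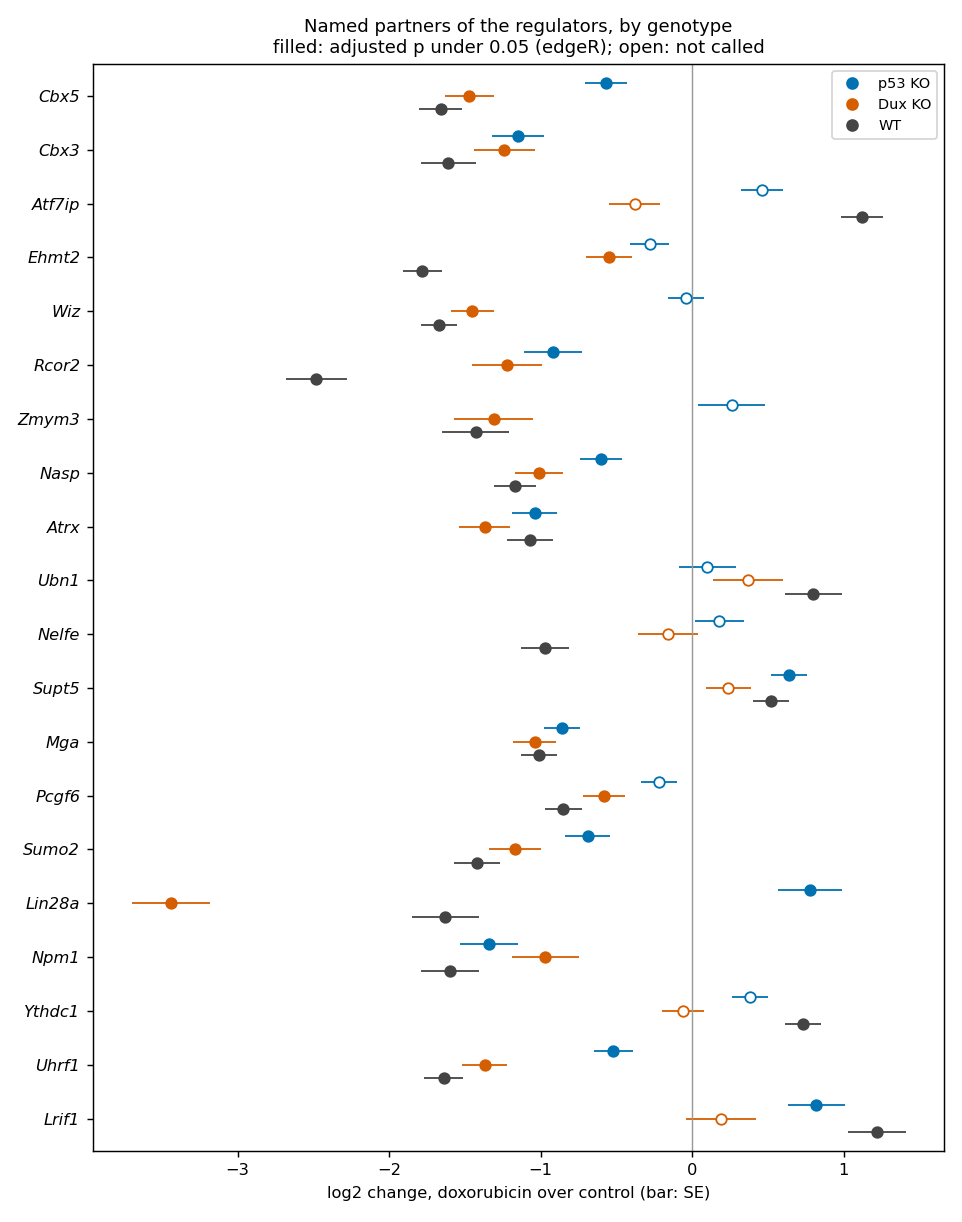
The log2 change, doxorubicin over control, is plotted for the named partner genes in p53 KO (blue), Dux KO (orange) and WT cells (grey), with bars of 1 standard error and filled points for adjusted p under 0.05. Rcor2 reaches -2.48 and Ehmt2 -1.78 in WT cells, and Lin28a lies at 0.78 in p53 KO and -3.44 in Dux KO cells.

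The scale of the values bears on the small changes. The log2 ratio of the deposited FPKM exceeded edgeR's log2 change by a median of 0.04 in the WT response, 0.31 in the p53 KO response, 0.23 in the Dux KO response, 0.22 between p53 KO and WT doxorubicin cells and 0.12 between Dux KO and WT doxorubicin cells. On FPKM, limma called 1780 genes higher and 449 lower in the p53 KO response, where edgeR called 2668 and 2318, and 1 member, Nelfa, as a rise. It called 3061 higher and 1895 lower in the Dux KO response, where edgeR called 4156 and 3422, and 2 members, Chaf1a as a rise and Trim28 as a fall. In the WT response it called 3391 higher and 4455 lower, where edgeR called 8297 and 6700. With RLE scaling the all-gene median shifted by 0.10 in the WT response, -0.12 in the p53 interaction, -0.11 between p53 KO and WT doxorubicin cells and -0.10 between Dux KO and WT doxorubicin cells. In the p53 KO doxorubicin libraries, Duxf3 differed 4.94-fold between lines 1 and 2 (1.69 and 0.342 FPKM), while Nelfa differed 1.03-fold and Dppa2 1.11-fold.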

How the data were processed

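Poly(A) RNA was measured in 12 libraries of 6 groups. The authors deposited whole-number gene counts, and a second table with FPKM values, log2 fold changes with standard errors and adjusted p-values of their own comparisons. TopHat2, DESeq, DESeq2 and build mm10 are named in the submitters' processing notes, while versions, read counter, annotation and strand setting are not given in the sources used here. Of the 54532 identifiers, 54409 were matched to GENCODE M21 (GRCm38), which gave the positions. Another 6 columns, which hold group averages of FPKM, were not used.

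For 11 libraries the deposited counts went into edgeR's quasi-likelihood model (version 4.0.16, R 4.3.3), scaled by TMM and filtered by filterByExpr at a minimum count of 10, with 1 mean per group and 5 residual degrees of freedom. Tests were two-sided, with Benjamini-Hochberg adjustment over 28643 genes. Alternatives were RLE scaling, no filter, DESeq2 1.42.0, limma 3.58.1 on log2(FPKM + 1) or log2(FPKM + 0.1) with a filter of 1 FPKM in 2 libraries, and on log2(FPKM + 1) without it, each library left out in turn, a replicate block, and 12 libraries with the counts of Dux KO control 2 recovered from its FPKM. Of 2513 low FPKM values of that library, 100% lay within 0.15 of a whole read, and the recovered total was 55636083. Members less the counts of an overlapping gene were added after seeing the data. On simulated counts, edgeR recovered 76% of WT responses of log2 1 and 91% of those of log2 2, with 7 false calls among 23233 genes. These counts came from WT control means with a fixed spread, and 100 genes were changed at each size. The real WT response called 52.4% of genes, so the rates may not hold for these data.

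Line numbers in the labels pair the knockout libraries, since same-numbered libraries share a cell line. The line 1 minus line 2 difference under drug and under control correlated at r = 0.74 over 14872 genes in p53 KO and r = 0.27 over 17214 genes in Dux KO cells. WT columns carry no number, so WT libraries were not paired. Without counts of Dux KO control 2, the block on 11 libraries rests the Dux KO response on doxorubicin 1 against control 1. Counts called with that block in comparisons that hold Dux KO controls carry this limit. Partner genes were named as those called in the WT response with the 2 widest changes of their list and, where both went 1 way, the widest in the other direction. Of these, 1 gene is not reported here. Genes most like an activator were ranked by Pearson correlation of log2(FPKM + 0.1) among genes averaging at least 1 FPKM. The members and lists were chosen with earlier results of these data known.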

Additional observations from a re-analysis of the deposited data

Results flagged for a closer look

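The response to doxorubicin differed between genotypes, by the interaction in edgeR, for 4 regulators. The p53 KO response minus the WT response was log2 -2.75 for Nelfa, -1.20 for Dppa2, 1.06 for Trim28 and 1.20 for Chaf1b. The Dux KO response minus the WT response was log2 -3.56 for Nelfa and -2.06 for Dppa2. The 2 genotype contrasts share the WT libraries.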

How the results depend on the processing

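Over the log2 changes of the 10 members in 9 comparisons, 1662 values under alternatives kept their side of the threshold, 67 lost a call, 50 gained one, and 0 were called in the opposite direction to the reported value. Of the 1662, 84 were uncalled with the other sign (at most 0.29 in size, smallest adjusted p = 0.22). With the replicate block, called members numbered 6 in place of 4 in the p53 KO response and 7 in place of 4 in the p53 interaction. They numbered 1 in place of 0 between p53 KO and WT controls and 7 in place of 6 between p53 KO and WT doxorubicin cells. Between Dux KO and WT doxorubicin cells they numbered 5 in place of 3. In the Dux KO response the block with recovered counts called 9 members in place of 4, beside 13103 of all genes in place of 7578. Called partner genes numbered 43 in place of 26 in the p53 KO response, 25 in place of 12 in the p53 interaction, and 14 (8 with recovered counts) in place of 5 in the Dux interaction. In the Dux KO response the block alone also put Dppa2 (log2 -0.56) and Kdm1a (log2 -0.36) past the threshold as falls. There it sets doxorubicin 1 against control 1 only. The block alone changed no other call of a member than these and those given beside the results. With limma on FPKM, which leaves out Smchd1 unless unfiltered, called members numbered 1 in the p53 KO and 2 in the Dux KO response, in place of 4 each. Partner genes numbered 9 (8 without a filter) in the p53 KO response and 3 in the Dux interaction, and, without a filter, 16 in place of 30 in the Dux KO response. The cause was not tested.

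Leaving out 1 library gave 7 to 9 members in the WT response, 2 to 4 in the p53 KO response (2 without WT doxorubicin a or p53 KO control 2), 3 to 5 in the Dux KO response, 2 to 5 in the p53 interaction (2 without WT control a, WT control b or WT doxorubicin b), 1 to 2 in the Dux interaction (1 without WT control b), 4 to 6 between p53 KO and WT doxorubicin cells, and 2 to 5 between Dux KO and WT doxorubicin cells (5 without p53 KO doxorubicin 1 or 2). Partner genes ran from 31 to 44, 17 to 29 (17 without p53 KO control 2) and 18 to 32 (18 without Dux KO doxorubicin 2) in the WT, p53 KO and Dux KO responses, 8 to 17 in the p53 interaction and 0 to 10 in the Dux interaction (0 without WT control b, 10 without p53 KO doxorubicin 1 or 2). Without Dux KO control 1, comparisons with Dux KO controls give no value.

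Counts over all genes moved more. Against 4986 in the p53 KO response, the block gave 10876 and limma 2229. Against 5798 in the p53 interaction the block gave 10796, and against 1504 in the Dux interaction the block gave 5892 and DESeq2 2996. Between controls, p53 KO against WT gave 254, and 1126 with DESeq2 and 3450 with the block, and Dux KO against WT gave 287, and 1707 with DESeq2 and 3017 with the block. Limma gave 7846 in place of 14997 in the WT response and 4956 in place of 7578 in the Dux KO response. Between doxorubicin cells, limma gave 8025 in place of 12527 for p53 KO and 5387 in place of 8618 for Dux KO against WT, and the block gave 14345 for Dux KO. Leaving out 1 library gave 0 to 1156 between Dux KO and WT controls, where each of the 10 libraries moved the count of 287 by over 1.5 times and it was 0 without any 1 WT library. It gave 30 to 775 between p53 KO and WT controls (9 of 11 libraries; 30 and 38 without a WT control) and 362 to 2773 in the Dux interaction (8 of 10 libraries; 362 without WT control b and 2773 without p53 KO doxorubicin 2). It gave 3731 to 10447 between Dux KO and WT doxorubicin cells (3731 and 5000 without WT doxorubicin b or a, 3961 and 4792 without Dux KO doxorubicin 1 or 2), and 3077 to 6357 in the p53 interaction (3077 to 3562 without a WT library). It gave 4291 to 9207 in the Dux KO response (5002 and 4291 without Dux KO doxorubicin 1 or 2), 3267 to 5168 in the p53 KO response (3267 without WT doxorubicin a) and 8184 to 13557 between p53 KO and WT doxorubicin cells (8184 without WT doxorubicin b).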
